A study of Drosophila melanogaster with 30 samples.

Results

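The genes described here are the cytosolic ribosomal protein genes of *Drosophila melanogaster*, taken as every gene symbol in the count files that starts with RpL or RpS. The mitochondrial genes, whose symbols start with mRp, were not among them. This gave 91 of the 16322 genes listed, 53 named for the large subunit (RpL) and 38 for the small subunit (RpS). A ribosome is built from ribosomal RNA and about equal numbers of molecules of each ribosomal protein, and the cell makes these proteins in a coordinated way because a lone subunit protein has no ribosome to join. Their mRNAs are among the most abundant of growing cells. Most fly ribosomal proteins come from a lone gene, while a few have a paralog, and several of the rarer paralogs are best known from the germline.

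The samples were 30 Drop-seq libraries of hemocytes, the blood cells of the larva, from the wild-type strain Oregon-R, with times in hours after egg laying (AEL). Infested larvae were exposed to the parasitoid wasp *Leptopilina boulardi* at 72 h AEL, and normal larvae were not. Infested circulation gave 3 libraries labelled 96 h AEL with 5988 cells and 3 libraries of 120 h AEL with 6708 cells, and infested lymph glands gave 4 libraries of 96 h AEL with 10179 cells. Normal circulation gave 3 libraries of 96 h AEL with 1034 cells and 3 of 120 h AEL with 1706 cells, and normal lymph glands gave 5 libraries of 72 h AEL with 2332 cells, 5 of 96 h AEL with 9425 cells and 4 of 120 h AEL with 10998 cells. Each lymph gland library came from many pooled glands, the larval organ in which hemocytes form, so a library is a pool of animals, and p-values measure the spread between such preparations. Drop-seq counts unique molecular identifiers (UMIs), 1 for each captured mRNA 3′ end, so levels of genes are compared without a length correction. Levels are given as CPM, the UMIs of a gene relative to the library total on a common scale, and tests used the UMIs summed over the cells of a library.

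Libraries held 1229715 to 33310323 UMIs in kept cells, so the 95% Wilson interval of a library's summed share was at most 0.0746 percentage points to either side, for counting error alone. The 3 libraries labelled as infested circulation of 96 h AEL stood apart from their label. Their levels correlated with the mean of normal lymph glands of 96 h AEL at r = 0.838, 0.939 and 0.922, against 0.709, 0.755 and 0.732 with the mean of normal circulation of that age. Their prohemocyte markers (Tep4, Ance) summed to 2060 to 2791 CPM, against 413 to 560 CPM in normal circulation. Their 4 plasmatocyte markers summed to 815 to 1706 CPM, against 7563 to 11021 CPM in normal circulation, and markers of the posterior signaling center, a lymph gland niche, to 21.3 to 58.7 CPM against 4.08 to 11.3 CPM. Set against infested lymph glands, they differed in 7 of 8068 genes and in 0 of 86 ribosomal protein genes by edgeR (1013 and 2 at an unadjusted p under 0.05). They are called "labelled infested circulation" throughout. Library 3 of normal circulation at 96 h AEL and library 1 at 120 h AEL shared 38 cell barcodes, against at most 3 in any other of the 435 pairs of libraries. For 37 of these barcodes the best match among the shared cells of the other library was the cell of the same barcode (median r of 0.662, against 0.537 with other cells), so the 2 ages may share these cells and the 2 libraries may not be independent. Library 2 of normal lymph glands at 120 h AEL had 21418 CPM of heat shock genes, against 2717 to 5723 CPM in the other libraries of that age.

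Ribosomal protein genes took 21.0% to 41.1% of all UMIs of a library. Of the 91 genes, 79 averaged at least 1000 CPM over the 30 libraries, and 42 were among the 100 most abundant genes of every library. RpL34a averaged between 500 and 1000 CPM, and RpL24-like, RpS15Ab and RpLP0-like between 20 and 500 CPM. RpS5b and RpS19b, paralogs enriched in the germline of the fly, averaged between 1 and 20 CPM. The remaining 6 (RpS10a, RpL37b, RpL10Aa, RpL22-like, RpS28-like and RpS28a) averaged under 1 CPM over the 30 libraries, though some exceeded it in single groups. All genes that averaged under 500 CPM together made at most 0.242% of the ribosomal protein UMIs of a library. Among the most abundant were RpL41, which encodes the smallest ribosomal protein, the stalk proteins RpLP2 and RpLP1, which recruit elongation factors, and RpL27A.

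The summed share separated circulation from the lymph gland in normal larvae. At 96 h AEL it was 23.7%, 23.2% and 24.1% in normal circulation, against 36.1%, 38.4%, 37.2%, 36.7% and 35.5% in normal lymph glands. At 120 h AEL it was 29.6%, 27.0% and 24.1% in normal circulation, against 36.8%, 37.6%, 39.7% and 41.1% in normal lymph glands. Every library of normal circulation lay below every library of normal lymph glands at both ages. The means were 23.7 ± 0.456% and 36.8 ± 1.10% at 96 h AEL (SD, n = 3 and 5), a ratio of 0.643, and 26.9 ± 2.75% and 38.8 ± 1.99% at 120 h AEL (SD, n = 3 and 4), a ratio of 0.694. No test was made of the summed share, because its members were chosen together. A share is relative, so fewer ribosomal protein mRNAs and more of other mRNAs cannot be told apart, nor can the kinds of cells present and the mRNA of each cell in a whole library.

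Within lymph glands the share varied less than between tissues. In normal glands it was 39.3%, 37.9%, 38.9%, 38.9% and 33.6% at 72 h AEL, with library 5 below the other libraries, and the values of 96 and 120 h AEL given above overlapped with these. The mean at 96 h AEL lay 0.950 percentage points below that at 72 h AEL (range −1.98 to −0.551 on leaving out each library), and the mean at 120 h AEL lay 2.01 points above that at 96 h AEL. Leaving out library 4 of 120 h AEL brought this difference to 1.22 points, and a denominator without the 20 most abundant other genes brought it to 0.0636 points. Infested lymph glands had 36.0%, 32.5%, 34.7% and 31.6%, against 35.5% to 38.4% in normal lymph glands of 96 h AEL. The means were 33.7 ± 1.99% and 36.8 ± 1.10% (SD, n = 4 and 5). On these shares library 1 overlapped with normal glands and 3 libraries lay below them. The denominators were unlike, since 541 genes with 2.11% to 2.29% of the UMIs of normal glands were not listed for infested ones. Without these genes normal glands had 36.3% to 39.2%, above all libraries of infested glands, and the difference in means was −3.92 points.

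In circulation the mean share of infested libraries lay above that of normal ones at 96 h AEL and below it at 120 h AEL. Age cannot be told apart here from the label that the infested libraries of 96 h AEL went against. The share was 28.4%, 34.9% and 32.5% in labelled infested circulation, against 23.2% to 24.1% in normal circulation of 96 h AEL, without overlap and with a difference in means of 8.30 points. At 120 h AEL it was 25.1%, 23.5% and 21.0% in infested circulation, against 29.6%, 27.0% and 24.1% in normal circulation. These groups overlapped, since library 1 of infested circulation lay above library 3 of normal circulation, and the difference of −3.72 points became −2.36 points without library 1 of normal circulation. The 4 lamellocyte markers summed to 8046 to 10357 CPM in infested circulation of 120 h AEL, against 616 to 1001 CPM in normal circulation, and the 4 plasmatocyte markers to 576 to 1105 CPM against 6299 to 9162 CPM, with none of these markers at 0. Their part in the difference was not tested.

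**Figure D1:**
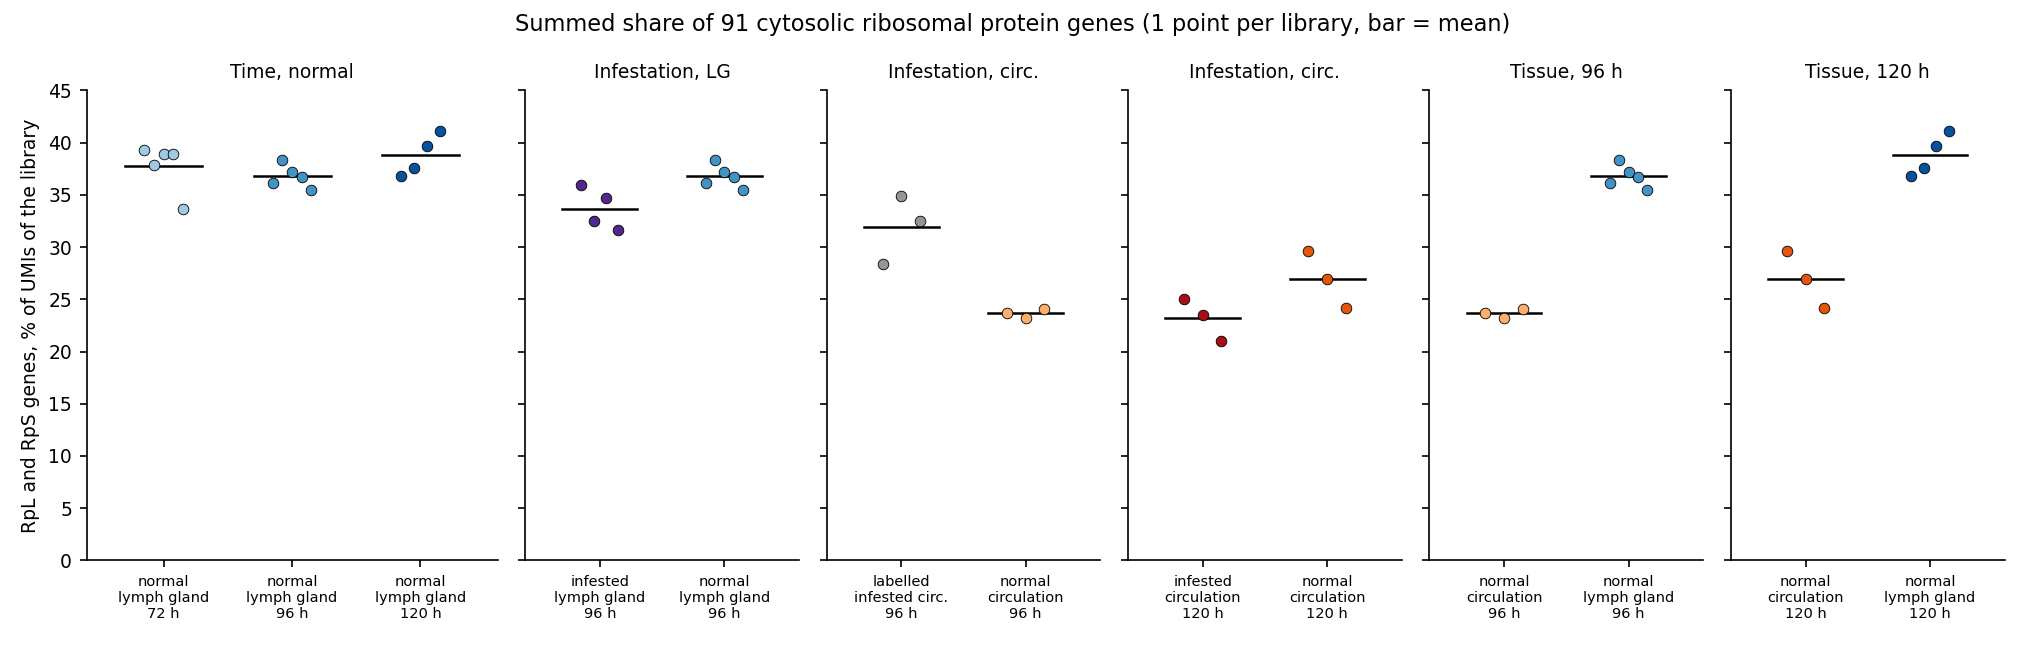
Summed share of the 91 cytosolic ribosomal protein genes in percent of all UMIs of a library (y axis, from 0) for the groups of each comparison (x axis), with 1 point per library and a bar at the mean. Normal circulation sits between 23.2% and 29.6%, below all libraries of normal lymph glands of 96 and 120 h AEL.

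Other features of the libraries moved with tissue. At 96 h AEL prohemocyte markers summed to 413 to 560 CPM in normal circulation, against 2851 to 3336 CPM in normal lymph glands, and plasmatocyte markers to 7563 to 11021 CPM, against 1347 to 3461 CPM. Heat shock genes summed to 4114 to 6108 CPM, against 1985 to 3470 CPM, and none of the 3 sums overlapped at 96 h AEL. At 120 h AEL the heat shock sums did overlap, with 4235 to 5600 CPM in normal circulation, against 2717 to 21418 CPM in normal lymph glands. Mitochondrially encoded genes took 5.60% to 7.91% of UMIs in normal circulation, against 2.60% to 4.95% in normal lymph glands of 96 and 120 h AEL. Cells were kept up to a mitochondrial share of 20% in circulation but only 10% in lymph glands. What these unequal limits add to the difference was not tested. Crystal cell markers, which mark the melanizing hemocytes, summed to 2022 to 12269 CPM in normal circulation, against 455 to 2086 CPM in these lymph glands. The 9 markers of muscle, fat body and other tissues that are not blood summed to 74.4 to 276 CPM in normal circulation, against 5.61 to 28.6 CPM in these lymph glands, and 3 of them were at 0 in all libraries of normal circulation at 96 h AEL. Without mitochondrial and ribosomal RNA genes in the denominator the difference between the tissues was −12.7 points at 96 h AEL and −11.3 points at 120 h AEL, and without the 20 most abundant other genes −15.7 and −12.2 points. The part of the cell types in the difference was not tested. Without the shared barcodes the share was 24.3% in library 3 of normal circulation at 96 h AEL and 29.7% in library 1 at 120 h AEL, and 82 and 78 genes were lower in circulation than in lymph glands at the 2 ages.

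Cells of a library differed in their share by more than counting. With each cell thinned to 2000 UMIs, the SD between cells of a library was 4.04 to 6.61 percentage points, against 0.921 to 1.10 points for counting alone. The rank correlation between a cell's share and its UMIs lay between −0.244 and 0.134 over the 30 libraries, given as a description of cells that share a library. Thinning moved the share of a library by at most 1.04 points.

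The subunits kept nearly the same ratio except in normal circulation. The RpL genes gave 1.60 ± 0.0132 and 1.58 ± 0.00327 times the UMIs of the RpS genes in normal circulation of 96 and 120 h AEL (SD, n = 3 each). The ratio was 1.47 ± 0.00669 in infested circulation of 120 h AEL, and the means of labelled infested circulation, infested lymph glands and normal lymph glands lay between 1.45 and 1.51. All 6 libraries of normal circulation, the lowest at 1.58, lay above all other libraries, the highest of which was at 1.52.

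The lower share of normal circulation was found in nearly all single genes. Relative to normal lymph glands, 82 of the 87 ribosomal protein genes tested were lower in normal circulation at 96 h AEL (22.8% of all genes tested were lower) and 78 were lower at 120 h AEL (24.0% of all genes), at a Benjamini-Hochberg adjusted p under 0.05. Only RpL37b and RpL22-like, both under 3 CPM in the group means, were higher at both ages (27.0% and 28.0% of all genes were higher). Both passed the removal of genes with low counts through libraries of circulation alone. The median log2 fold change was −1.04 and −1.11, which is 1.12 and 1.17 under the median of all genes tested. The fits scaled libraries by trimmed means (TMM), so fold changes can differ from ratios of CPM. With library totals the medians of all genes moved to 0.46 and 0.57 and those of the ribosomal protein genes to −0.66 and −0.59, and no median of these genes changed sign in any of the 7 comparisons of groups. The comparisons of tissue, age and infestation share the libraries of normal larvae, so they are not independent of each other.

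RpL23A and RpS3 fell among the most. RpL23A, which lies at the polypeptide exit tunnel of the large subunit (3L:1666288-1668654, minus strand, BDGP6), had 1031, 1804 and 1432 CPM in normal circulation, against 4034, 3519, 3588, 3354 and 2824 CPM in normal lymph glands of 96 h AEL. Its log2 fold change was −1.68 (SE 0.16, adjusted p = 1.78e-06), and at 120 h AEL −1.82 (SE 0.16, adjusted p = 2.06e-06). RpS3, at the mRNA entry of the small subunit, had 1705, 1820 and 1824 CPM, against 3702, 4122, 4344, 4140 and 3814 CPM, a log2 fold change of −1.56 at 96 h AEL (SE 0.10, adjusted p = 8.96e-08). The libraries of circulation lay below all those of the lymph gland for both genes. RpS24 fell by 1.43 on the log2 scale at 96 h AEL (adjusted p = 4.52e-07), and RpL9 by 1.65 at 120 h AEL (adjusted p = 1.18e-06).

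At each age a few genes did not follow. At 96 h AEL, RpL22, which encodes an RNA-binding protein of the large subunit (X:762560-765130, minus strand), had 1340, 1741 and 1429 CPM in normal circulation, against 1489, 839, 1472, 979 and 1074 CPM in normal lymph glands. These overlapped, with a log2 fold change of −0.02 (SE 0.16, adjusted p = 0.934), and its difference from the median of the ribosomal protein genes exceeded 1.0. At 120 h AEL RpL22 did fall, with means of 1275 CPM in normal circulation and 2007 CPM in normal lymph glands. Its log2 fold change there was −1.26 to −1.08 on leaving out each library, near the median of −1.11. RpS5b and RpL39 were the other tested genes without a call at 96 h AEL. RpL39, a very small protein of the exit tunnel, had 6482, 5466 and 4615 CPM in normal circulation of 120 h AEL, against 2622, 3827, 3813 and 4076 CPM in normal lymph glands, all higher in circulation, although its TMM-scaled log2 fold change was 0.11 (SE 0.17, adjusted p = 0.619). Scaled to the summed ribosomal protein UMIs in place of all genes, an alternative added after seeing the data, the log2 fold change of RpL22 at 96 h AEL was 1.00 (adjusted p = 0.000278) and that of RpL39 at 120 h AEL 1.15 (adjusted p = 4.28e-06). RpS19b also lay over 1.0 above the median at 120 h AEL (log2 fold change 0.38, adjusted p = 0.151), while RpL41, RpL29, RpS15Ab, RpLP0-like and RpS5b lay closer to it and were not called.

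The 2 genes that rose in circulation are very rare. RpL37b gave 6 and 30 UMIs in all cells of normal circulation of 96 and 120 h AEL, against 1 UMI in normal lymph glands of each age (adjusted p = 0.00766 and 0.000211). RpL22-like, a paralog enriched in the testis of the fly, gave 8 and 18 UMIs, against 2 and 1 UMIs in normal lymph glands (adjusted p = 0.0101 and 0.0011). Of these, 22 UMIs of RpL37b and 13 of RpL22-like came from library 2 of normal circulation at 120 h AEL. The highest adjusted p on leaving out a library was 0.0958 for RpL37b and 0.0763 for RpL22-like at 96 h AEL. Both calls were lost there. At 120 h AEL it was 0.00245 and 0.0158, and the calls held. Normal lymph glands held too few UMIs of both genes to pass the low-count filter, so they entered the tests through circulation alone. A call in the other direction was thus hardly possible, and these p-values are descriptions. The number of higher genes was 1 without library 1 or 3 of normal circulation at 96 h AEL and 4 without library 1 or 3 at 120 h AEL. A list of 7 testis genes, chosen after the values were seen, summed to 223 CPM in library 2 of normal circulation at 120 h AEL, against 20.5 to 23.1 CPM in the other libraries of normal circulation at 120 h AEL and at most 3.16 CPM in normal lymph glands. At 96 h AEL it summed to 15.8, 9.76 and 109 CPM in libraries 1 to 3 of normal circulation, which held 2, 0 and 4 UMIs of RpL37b and 5, 0 and 3 of RpL22-like. Its part in these UMIs was not tested. In lymph glands of 72 h AEL, library 1 held all 6 UMIs of RpL37b and all 10 of RpL22-like, with a testis sum of 0.310 CPM.

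**Figure D2:**
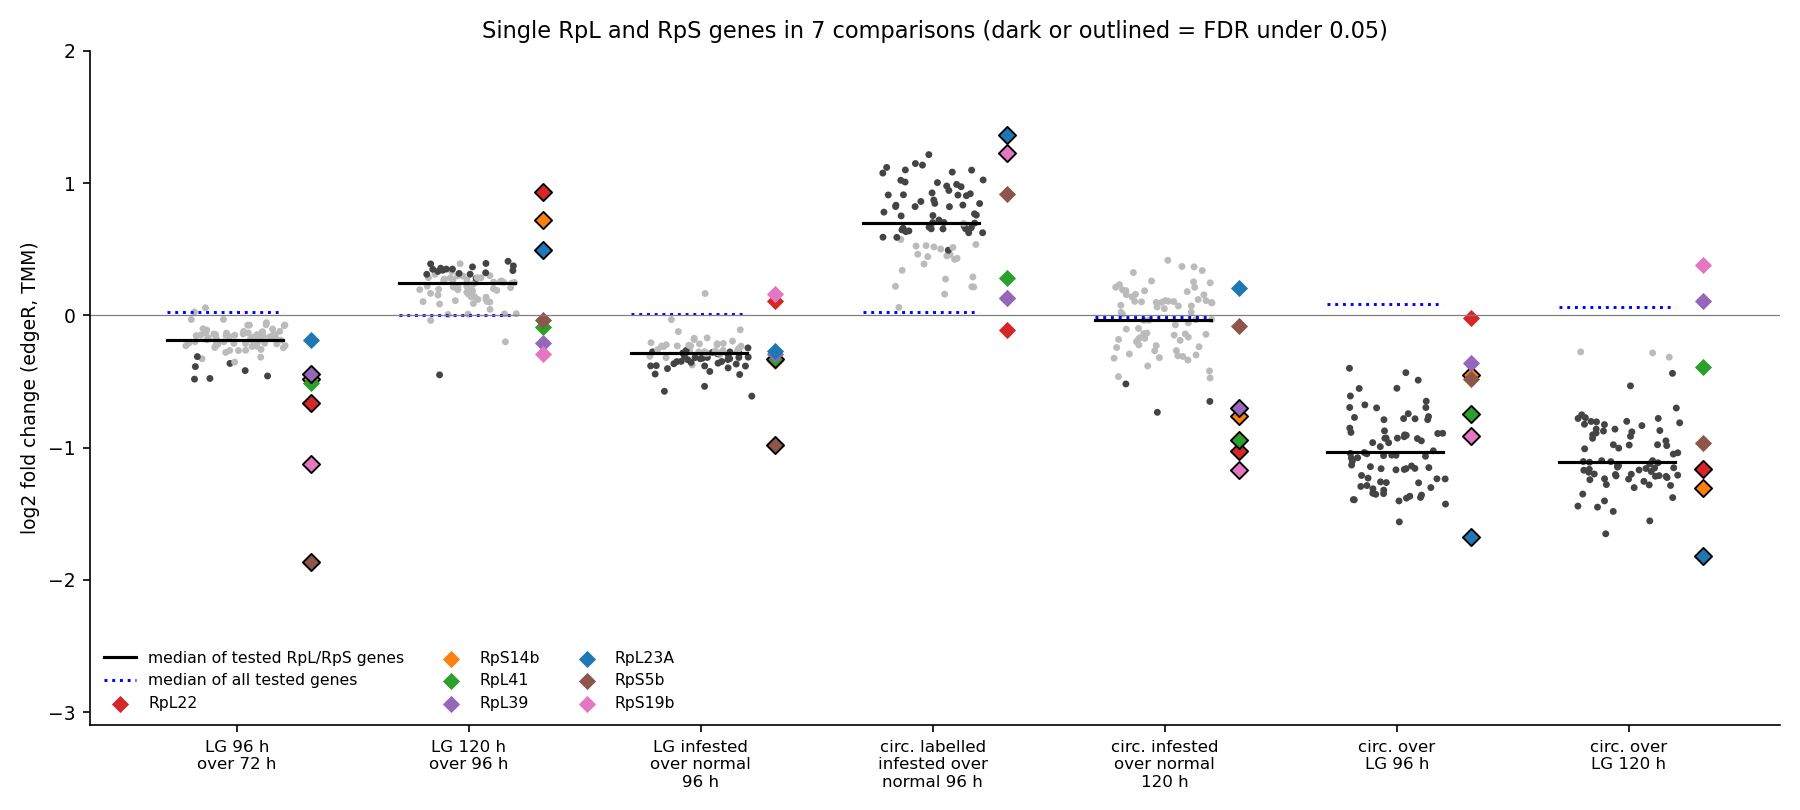
Log2 fold change (edgeR, TMM scaling, y axis) of each tested ribosomal protein gene in the 7 comparisons (x axis), with dark points and outlined diamonds at an adjusted p under 0.05, a bar at the median of these genes and a dotted line at that of all genes. The 6 genes that averaged under 1 CPM are not drawn. RpL22 lies at −0.02 in circulation over lymph gland at 96 h AEL, where the median is −1.04.

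In normal lymph glands between 72 and 96 h AEL, 12 of 86 tested genes fell (10.2% of all genes tested fell) and 0 rose, with 0 higher also at an unadjusted p under 0.05 and 16 lower by DESeq2. The median log2 fold change was −0.18. Crystal cell markers summed to 960 to 2086 CPM at 96 h AEL, against 0.807 to 107 CPM at 72 h AEL. Prohemocyte markers summed to 2851 to 3336 CPM, against 3388 to 4412 CPM. Neither sum overlapped, and no marker was at 0 in all libraries. Taken singly, Tep4 (750 to 1369 CPM, against 1100 to 1585 CPM) and Ance (1930 to 2343 CPM, against 2051 to 2894 CPM) overlapped between the ages. The part of these markers in the falls was not tested. The germline paralogs moved the farthest. RpS5b (3R:14900432-14901563, minus strand) had 8.44, 5.80, 8.01, 5.20 and 6.45 CPM at 96 h AEL, against 15.5, 28.4, 28.7, 18.5 and 20.3 CPM at 72 h AEL, a log2 fold change of −1.87 (SE 0.28, adjusted p = 0.000314). RpS19b (3R:23932729-23933530, minus strand) had 6.03 to 8.12 CPM at 96 h AEL, against 11.1 to 16.5 CPM at 72 h AEL, a log2 fold change of −1.13 (SE 0.15, adjusted p = 9.25e-05). The 2 ages did not overlap for either gene.

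The other falls were smaller. RpL22 fell by 0.66 on the log2 scale (SE 0.17, adjusted p = 0.0123), with 1489, 839, 1472, 979 and 1074 CPM at 96 h AEL, against 1074, 1813, 1886, 1670 and 1849 CPM at 72 h AEL. Library 1 of 72 h AEL lay within the range of 96 h AEL. Among the others that fell were RpS14b, RpL34b, RpL29, RpS14a, RpL39, RpS15Ab, RpL24-like and RpS2, with RpS14b at −0.48 (SE 0.15, adjusted p = 0.0353). The count of falls depended on single libraries. It was 40 without library 5 of 72 h AEL, 7, 5 and 5 without libraries 1, 3 and 4 of 72 h AEL, and 7, 6, 7 and 6 without libraries 1, 2, 3 and 4 of 96 h AEL.

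Between 96 and 120 h AEL 20 of the 86 tested genes rose, a share near that of all genes (22.1% of all genes rose), and 1 fell (20.4% of all genes fell), with a median log2 fold change of 0.24. With the library number as a block 6 rose, and scaled to the summed ribosomal protein UMIs 9 were higher and 9 lower (13.4% and 26.4% of all genes). Prohemocyte markers (Tep4, Ance) summed to 4475 to 7210 CPM at 120 h AEL, against 2851 to 3336 CPM at 96 h AEL, with none at 0. The rise was in Ance alone (3348 to 6267 CPM, against 1930 to 2343 CPM). Tep4 overlapped between the ages (804 to 1127 CPM, against 750 to 1369 CPM). The part of these markers in the changes was not tested. This comparison shares the libraries of 96 h AEL with the preceding one. RpL22 had 2142, 1817, 1723 and 2346 CPM at 120 h AEL, above all libraries of 96 h AEL, and rose by 0.93 on the log2 scale (SE 0.18, adjusted p = 0.000584). RpS14b, part of the platform of the small subunit, had 1646, 1497, 1645 and 2675 CPM, against 1538, 1104, 1220, 1110 and 1344 CPM, and rose by 0.72 (SE 0.16, adjusted p = 0.00204), although 1 library of each age overlapped. RpL23A had 4833, 4348, 4328 and 4082 CPM at 120 h AEL, all above the 2824 to 4034 CPM of 96 h AEL, a rise of 0.49 (SE 0.11, adjusted p = 0.00154).

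Among the other genes that rose were RpS26, RpL9, RpL19, RpL11, RpL12, RpL15, RpS6, the target of S6 kinase, RpL8, RpL4, RpL3, RpS29, RpL7A, RpL5, RpS4 and the stalk protein RpLP0. The fall was in RpLP0-like, whose human relative MRTO4 acts in the assembly of the large subunit. It had 96.0, 74.4, 80.5 and 96.0 CPM at 120 h AEL, against 122 to 140 CPM at 96 h AEL, without overlap, a log2 fold change of −0.45 (SE 0.12, adjusted p = 0.00852). RpL39 was not called (adjusted p = 0.295), but relative to the summed ribosomal protein UMIs it fell by 0.45 on the log2 scale (adjusted p = 0.002). The number of rises was 8, 6, 9 and 5 without libraries 1, 3, 4 and 5 of 96 h AEL, and 13, 8, 5 and 13 without libraries 1 to 4 of 120 h AEL. It was 9 in a fit of all 30 libraries.

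In infested lymph glands the genes that fell did so by a little, and 43 of 85 were not called. Relative to normal lymph glands of 96 h AEL, 42 of 85 tested genes fell (9.76% of all genes fell) and 0 rose, with 0 higher and 74 lower at an unadjusted p under 0.05 and 57 lower by DESeq2. They were 21 of 50 RpL and 21 of 35 RpS genes, and the median log2 fold change was −0.29. RpS9, part of the small subunit body, had 3314, 3011, 3414 and 3737 CPM in infested lymph glands, against 4401, 4574, 4939, 4491 and 4453 CPM in normal lymph glands, a log2 fold change of −0.61 (SE 0.08, adjusted p = 0.000689). RpL9 had 3783, 3021, 3341 and 3060 CPM, against 4361, 4729, 4481, 4395 and 3892 CPM (log2 fold change −0.57, SE 0.11, adjusted p = 0.00467). RpS19a had 4481, 3699, 4094 and 3604 CPM, against 4840 to 5414 CPM (log2 fold change −0.54, adjusted p = 0.00486). None of these 3 genes overlapped between the groups. The fits left out the 541 genes that are not listed for infested lymph glands, while the CPM of normal lymph glands count them.

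RpS5b was lower too, at 3.17 to 4.49 CPM in infested lymph glands, against 5.20 to 8.44 CPM in normal ones (log2 fold change −0.98, SE 0.19, adjusted p = 0.00564). RpL22 had 1334, 1345, 1356 and 1617 CPM in infested lymph glands, within or above the range of normal ones, and was not called (log2 fold change 0.11, adjusted p = 0.651). Lamellocyte markers summed to 733 to 1130 CPM in infested lymph glands, against 280 to 570 CPM in normal lymph glands of 96 h AEL. Of these, atilla and PPO3 did not overlap between the groups. The markers mys (224 to 319 CPM, against 207 to 324 CPM) and cher (202 to 283 CPM, against 72.0 to 245 CPM) did overlap. Crystal cell markers summed to 9.93 to 83.4 CPM, against 960 to 2086 CPM, and no marker of either list was at 0 in all libraries. The part of these markers in the falls was not tested. The falls numbered 16, 22 and 12 without libraries 2, 3 and 4 of normal lymph glands, and 9, 14 and 11 without libraries 2, 3 and 4 of infested ones. They numbered 15 when scaled to library totals, 7 without the low-count filter or with the library number as a block, and 2 in a fit of all 30 libraries.

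In labelled infested circulation 57 of 85 tested genes were higher than in normal circulation of 96 h AEL (18.8% of all genes were higher) and 0 were lower, with 67 higher and 0 lower at an unadjusted p under 0.05, 65 higher and 0 lower by DESeq2, and a median log2 fold change of 0.70. They were 35 of 50 RpL and 22 of 35 RpS genes. RpL23A had 2794, 3315 and 3015 CPM in labelled infested circulation, against 1031, 1804 and 1432 CPM in normal circulation (log2 fold change 1.36, SE 0.27, adjusted p = 0.00396). RpS20 had 4390, 5293 and 5962 CPM, against 2187, 3097 and 2819 CPM (log2 fold change 1.21, SE 0.23, adjusted p = 0.00325), and RpS3A, which lies beside the mRNA exit, 4240, 4990 and 5504 CPM, against 2292, 3024 and 2661 CPM (log2 fold change 1.15, SE 0.20, adjusted p = 0.00185). All libraries of labelled infested circulation lay above all those of normal circulation for these genes. RpL22 had 1652, 1071 and 914 CPM, against 1340, 1741 and 1429 CPM, and was not called (log2 fold change −0.11, SE 0.16, adjusted p = 0.617).

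The number of genes higher in labelled infested circulation was 31 and 34 without libraries 1 and 2 of normal circulation and 31 without either library 2 or library 3 of labelled infested circulation. Because these libraries went against their label, the comparison is one between libraries as labelled. In the interaction of infestation and tissue at 96 h AEL, 77 of 86 genes had a lower infestation effect in lymph glands than in labelled circulation (16.4% of all genes did). RpL22 was the gene with the highest value of that difference, 0.19 (adjusted p = 0.600).

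In infested circulation of 120 h AEL, 8 of 85 tested genes fell relative to normal circulation (22.9% of all genes fell) and 0 rose, with 0 higher and 10 lower at an unadjusted p under 0.05, and 10 lower by DESeq2. The median log2 fold change was −0.04. Scaled to the summed ribosomal protein UMIs, 10 genes were higher and 10 lower (18.4% and 14.7% of all genes). RpL22 had 569, 528 and 598 CPM in infested circulation, against 1119, 1446 and 1259 CPM in normal circulation, a log2 fold change of −1.02 (SE 0.16, adjusted p = 0.000587). RpL41 had 5723, 4594 and 3835 CPM, against 11849, 10142 and 8178 CPM (log2 fold change −0.94, SE 0.23, adjusted p = 0.0065). RpS14b had 647, 632 and 428 CPM, against 1243, 1022 and 947 CPM (log2 fold change −0.76, SE 0.22, adjusted p = 0.0148). The groups did not overlap for any of the 3, and infested circulation had the lowest mean of RpL22 and RpL41 among the 8 groups.

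The other falls were in RpS19b (log2 fold change −1.17, adjusted p = 0.00499, with 4.15, 2.96 and 3.92 CPM against 6.59, 10.3 and 10.9 CPM), RpS15Ab, RpL39, RpL29 and RpS27. RpL39 had 3438, 2970 and 2806 CPM in infested circulation, against 6482, 5466 and 4615 CPM, and fell by 0.70 (SE 0.18, adjusted p = 0.00784). Relative to the summed ribosomal protein UMIs, RpL22 fell by 0.96 (adjusted p = 0.0136), RpL41 by 0.88 (adjusted p = 0.00084) and RpS14b by 0.70 (adjusted p = 0.037). The call of RpS14b was lost on leaving out 1 of the libraries (highest adjusted p = 0.0595), and the count was 5 without library 1 of normal circulation. With libraries scaled to their totals, 24 genes were lower, and in a fit without labelled infested circulation 11 were lower and 4 higher. The lamellocyte and plasmatocyte markers given above moved with this comparison, and their part in it was not tested.

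The infestation effect at 120 h AEL lay below that at 96 h AEL in circulation for 10 of 85 genes (5.18% of all genes), which rests on labelled infested circulation. These were RpS19b (difference of log2 fold changes −2.40, SE 0.41, adjusted p = 0.00477), RpL41 (−1.23, adjusted p = 0.0326), RpL22 (−0.91, adjusted p = 0.0283), RpL34a, RpS2, RpL29, RpL32, RpL24-like, RpS9 and RpS15Ab.

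The make-up of the ribosomal protein mRNA differed between the tissues. Libraries were scaled to the summed ribosomal protein UMIs for this. At 96 h AEL 23 of 87 genes were higher and 24 lower in normal circulation than in normal lymph glands (72.9% and 2.14% of all genes). At 120 h AEL 21 were higher and 21 lower (73.4% and 4.61% of all genes). Because most genes were called under this scaling, an adjusted p under 0.05 asks little more than an unadjusted one. For each of the 80 genes of at least 500 CPM, the mean percentage of the ribosomal protein UMIs was compared between the groups with the highest and the lowest mean. The median ratio was 1.26, 38 genes stayed under 1.25, 67 stayed under 1.5 and 13 reached 1.5 or more. RpL22 had the highest ratio, 2.60, between 0.245% of these UMIs in infested circulation of 120 h AEL and 0.637% in normal circulation of 96 h AEL. RpL39 followed with 2.22 (0.921% in normal lymph glands of 120 h AEL and 2.04% in normal circulation of 120 h AEL) and RpS14b with 2.09 (0.244% in infested circulation of 120 h AEL and 0.509% in normal circulation of 96 h AEL). The others were RpL23A at 1.89, RpL41 at 1.84, RpL29, RpS29, RpS27, RpL31, RpS9, RpL9, RpS3 and RpLP0. These are descriptions of group means, chosen for their range.

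**Figure D3:**
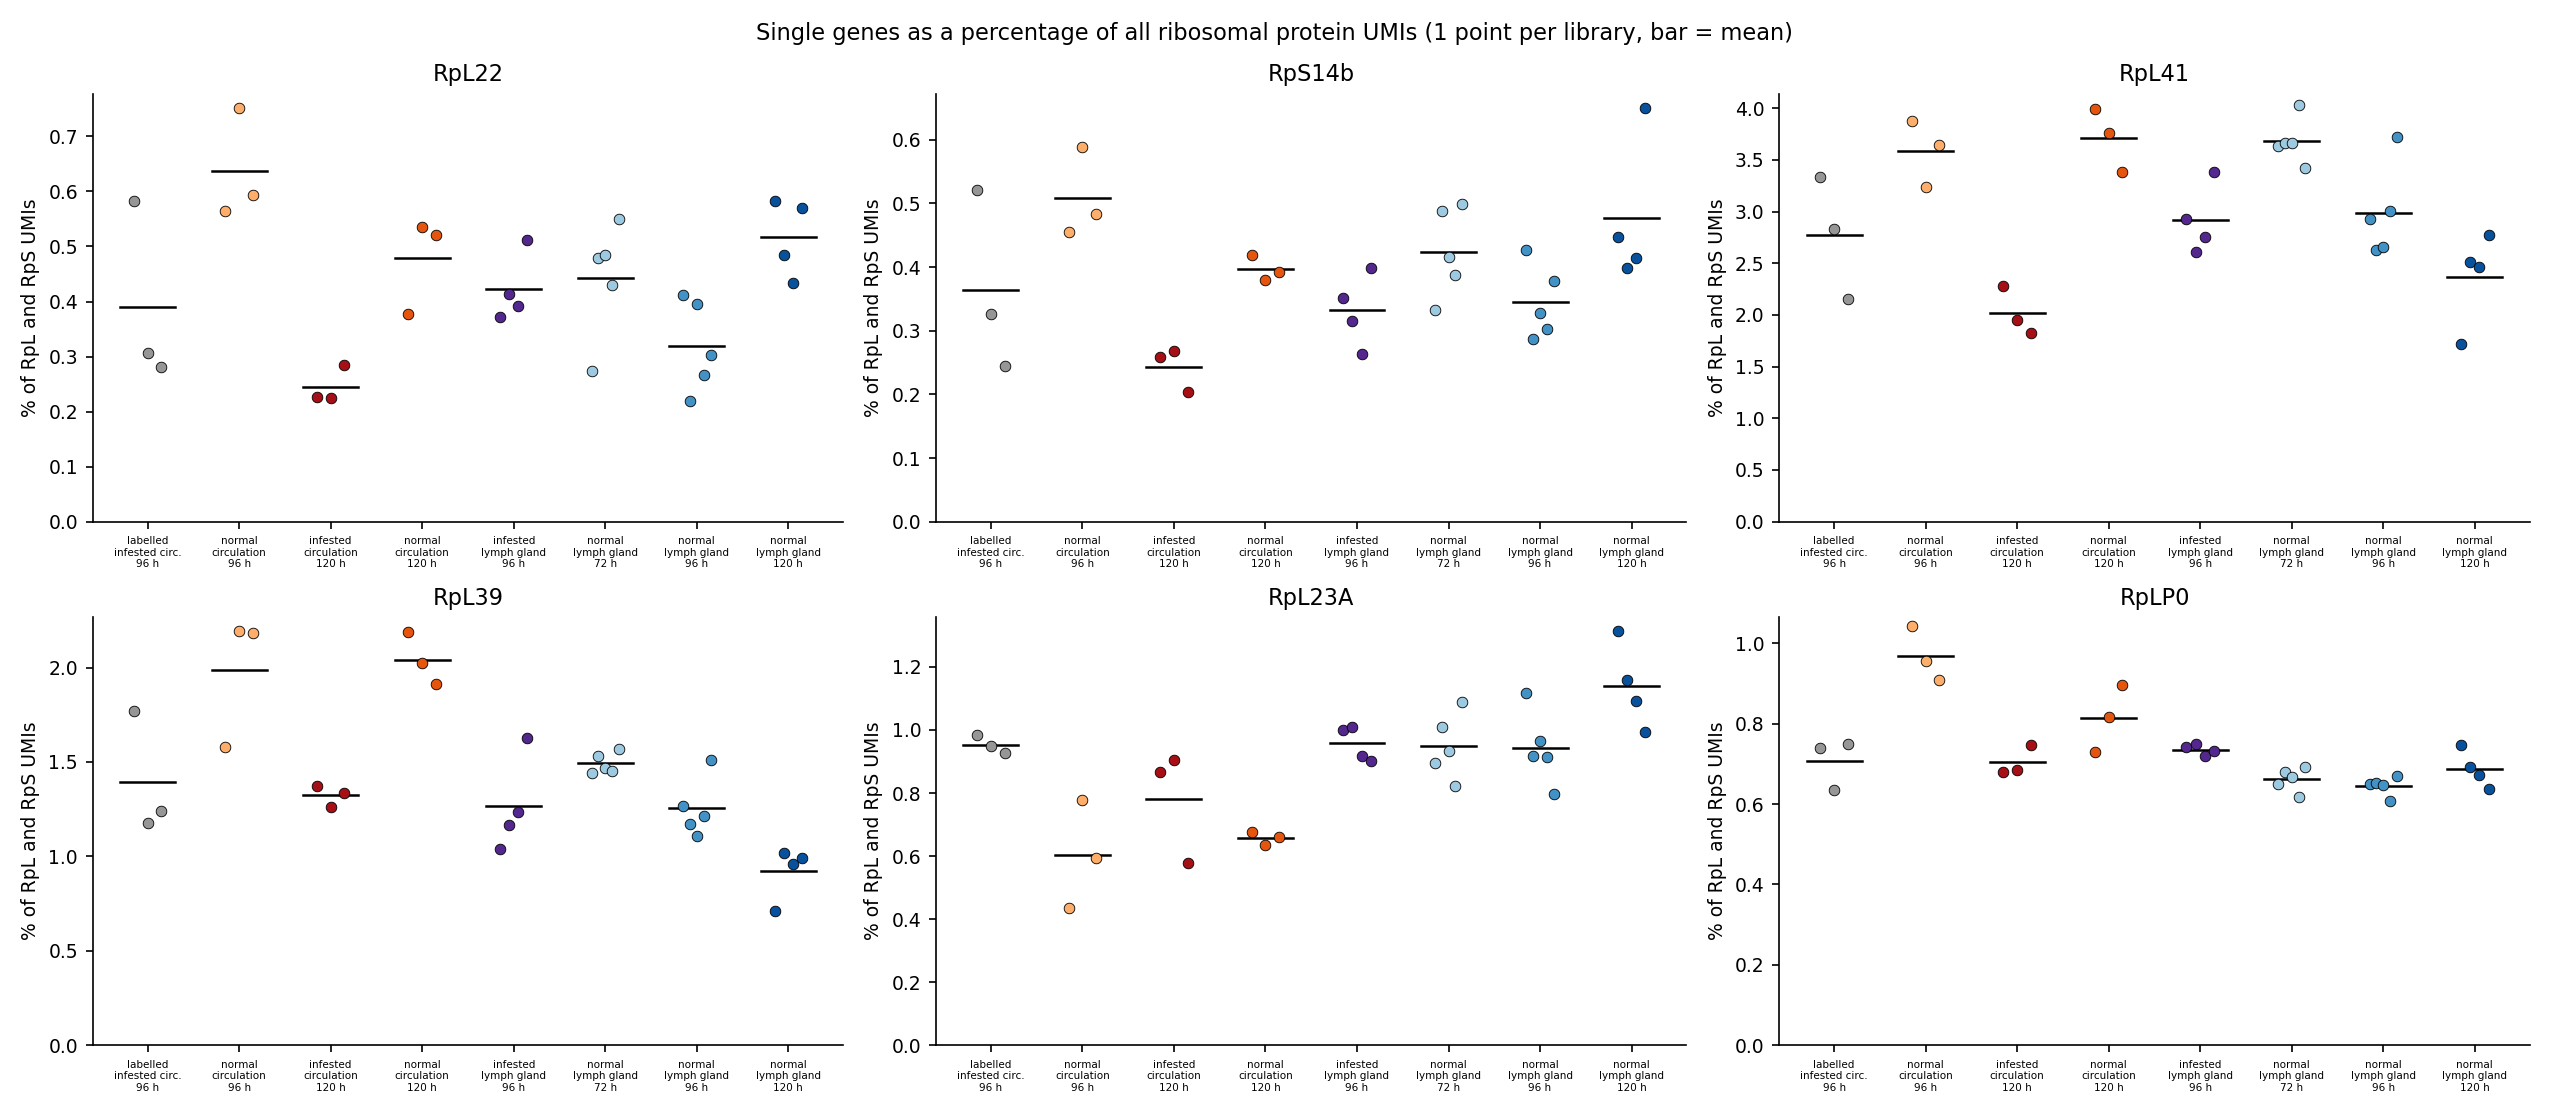
Each panel gives 1 gene as a percentage of all ribosomal protein UMIs of a library (y axis, from 0) in the 8 groups (x axis), with 1 point per library and a bar at the mean. RpL22 is lowest in infested circulation of 120 h AEL (mean 0.245%), RpL39 is highest in normal circulation (mean 2.04% at 120 h AEL) and RpL23A is highest in normal lymph glands of 120 h AEL (mean 1.14%).

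RpL41, the most abundant gene over all libraries, averaged 13919 ± 1520 CPM at 72 h AEL, 10963 ± 1335 CPM at 96 h AEL and 9231 ± 2134 CPM at 120 h AEL in normal lymph glands (SD, n = 5, 5 and 4). Its libraries overlapped between adjacent ages, and neither step was called. It averaged 4717 ± 950 CPM in infested circulation of 120 h AEL and 10056 ± 1837 CPM in normal circulation (SD, n = 3 each). Transcript length went with the changes to some extent. Over 79 genes, Spearman's rho between transcript length and the log2 fold change scaled to these UMIs was 0.51 from 96 to 120 h AEL in normal lymph glands, −0.42 in circulation over lymph gland at 120 h AEL and between −0.21 and 0.33 in the other 5 comparisons, a description across genes of the same libraries. Its part in the departures of short genes such as RpL41 and RpL39 was not tested.

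Of 13 listed paralog pairs, 12 had both genes in the files. Reads of near-identical copies may be split between them or dropped in the counting, so the shares below are uncertain for such pairs. RpS14a (X:7933742-7934677) and RpS14b (X:7934898-7935792) lie side by side on the plus strand. RpS14b gave 36.4 ± 3.34% of the pair's UMIs in normal lymph glands at 120 h AEL, against 30.5 ± 2.76% at 96 h AEL (SD, n = 4 and 5), and 23.0 ± 4.59% in infested circulation, against 29.2 ± 1.72% in normal circulation at 120 h AEL (SD, n = 3 each). No test was made of these percentages. RpL34b gave 72.9 ± 1.23% of its pair at 96 h AEL, against 79.5 ± 0.891% at 72 h AEL in normal lymph glands (SD, n = 5 each), with RpL34a as the other gene.

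In the other pairs 1 gene dominated. RpS5b made 0.127 ± 0.0272% of the pair with RpS5a at 96 h AEL, against 0.425 ± 0.106% at 72 h AEL in normal lymph glands. RpS19b made at most 0.286% of the pair with RpS19a in group means, and RpS10b, RpS28b and RpL10Ab made at least 99.9% of their pairs. RpS15Ab ranged in group means between 3.97% of the pair in normal lymph glands of 120 h AEL and 8.39% in normal circulation of 96 h AEL. RpL24-like, whose yeast relative Rlp24 acts in the assembly of the large subunit, ranged between 4.13% in infested circulation of 120 h AEL and 6.42% in normal circulation of 96 h AEL relative to the sum with RpL24. RpLP0-like ranged between 3.15% in normal lymph glands of 120 h AEL and 6.56% in labelled infested circulation relative to the sum with RpLP0.

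Cells were then divided by UMIs of 4 hemocyte genes, each cell thinned to 2000 UMIs. Tep4 marks prohemocytes, Hml maturing plasmatocytes, PPO1 crystal cells, and atilla lamellocytes. Positive cells had at least 1 UMI of Tep4 or Hml, 5 of PPO1 or 2 of atilla, negative cells had 0, and libraries with under 10 cells in either class were left out. Free RNA can give a UMI to a cell that does not express the gene, and a cell that does can show 0, so both classes are mixed. Their p-values come from fits with the library as a block.

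Tep4-positive cells of the lymph gland had the higher share. At 72 h AEL the share was 40.7%, 39.3%, 40.4%, 39.5% and 34.7% in Tep4-positive cells, against 36.2%, 34.1%, 34.9%, 35.9% and 29.9% in Tep4-negative cells of the same libraries. The difference was 3.61 to 5.51 percentage points at 72 h AEL, 2.13 to 3.09 points at 96 h AEL and 0.921 to 2.47 points at 120 h AEL in normal lymph glands, 2.40 to 2.69 points in infested lymph glands and 2.17 to 3.55 points in labelled infested circulation. All 14 libraries of normal lymph glands had the positive sign. In circulation the sign varied, with −2.41 to 0.563 points in normal circulation at 96 h AEL, 0.0427 to 0.763 points at 120 h AEL and −0.757 to 0.620 points in infested circulation at 120 h AEL. In normal lymph glands 81 of 85 tested genes were higher in Tep4-positive cells (13.2% of all genes were), all but RpS19b, RpS5b, RpL34a and RpS15Ab. The largest rise was in RpL41 (log2 fold change 0.32, SE 0.04, adjusted p = 3.33e-08, higher in 14 of 14 libraries), followed by RpS2 and RpL24-like (both 0.29).

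Hml-positive cells differed in opposite directions in the lymph gland and in circulation. In normal lymph glands of 96 h AEL the share was 34.9%, 37.6%, 36.5%, 35.8% and 35.1% in Hml-positive cells, against 38.2%, 40.7%, 40.3%, 39.9% and 38.6% in Hml-negative cells. The difference was −3.93 to −3.04 points at 72 h AEL, −4.15 to −3.11 points at 96 h AEL and −4.13 to −0.0301 points at 120 h AEL, and −3.04 to −1.96 points in infested lymph glands. At 120 h AEL the share was 29.2%, 28.5% and 24.9% in Hml-positive cells of infested circulation, against 25.0%, 23.5% and 19.8% in Hml-negative cells. In normal circulation of 120 h AEL it was 29.9%, 27.6% and 24.1% in Hml-positive cells, against 26.3%, 21.1% and 19.7% in Hml-negative cells, which were only 85 cells in all. The 2 usable libraries of normal circulation at 96 h AEL gave 1.61 and 7.03 points with 29 Hml-negative cells. All of these circulation libraries were positive and all lymph gland libraries negative, and labelled infested circulation (−2.23 to −1.48 points) had the sign of the lymph gland. With the 20 most abundant other genes left out of the denominator, 1 library of normal lymph glands at 120 h AEL turned to 0.251 points.

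Among single genes, 80 of 83 tested were lower in Hml-positive cells of normal lymph glands (10.0% of all genes were), all but RpLP0-like, RpS15Ab and RpL34a. The largest fall was in RpL24-like (log2 fold change −0.37, SE 0.07, adjusted p = 0.000647), followed by RpS29 (−0.26) and RpS15Aa (−0.24). Cells with Tep4 and without Hml had a higher share than cells with Hml and without Tep4, by 5.49 to 6.67 points at 72 h AEL, 4.56 to 5.78 points at 96 h AEL and 0.766 to 5.31 points at 120 h AEL in normal lymph glands, and by 3.99 to 4.75 points in infested lymph glands. In infested circulation of 120 h AEL the difference was −6.36 to −4.67 points.

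PPO1-positive cells of normal lymph glands showed no constant difference, with −0.288 to 0.490 points in 4 libraries of 96 h AEL and −1.86 to 0.565 points in 4 libraries of 120 h AEL. Without the 20 most abundant other genes in the denominator, the mean over these 8 libraries was −1.73 points in place of −0.0546. Of 83 tested genes, 2 were lower in PPO1-positive cells (16.7% of all genes were), RpS29 (log2 fold change −0.24, adjusted p = 0.0147) and RpL41 (−0.16, adjusted p = 0.0443), and 0 were higher (1 at an unadjusted p under 0.05). The count of lower genes was 3 without library 3 of 96 h AEL, 0 without library 1 of 120 h AEL, and 1 without libraries 2 or 4 of either age. Library 2 of labelled infested circulation gave 0.428 points. In circulation the PPO1-positive cells, 11 to 65 per library, had the higher share, by 6.91 and 9.01 points in infested circulation of 120 h AEL and by 4.60 and 4.75 points at 96 h AEL and 1.11 to 4.53 points at 120 h AEL in normal circulation.

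atilla-positive cells had the lower share in every library with enough cells. In infested lymph glands it was 30.6%, 27.4%, 30.4% and 28.6% in atilla-positive cells, against 36.7%, 33.3%, 35.2% and 32.1% in atilla-negative cells. In infested circulation of 120 h AEL it was 23.0%, 22.1% and 19.6% in atilla-positive cells, against 31.0%, 30.3% and 27.0% in atilla-negative cells. Labelled infested circulation gave −5.66 to −4.40 points, and normal lymph glands −8.08 points in library 4 of 96 h AEL, with 10 atilla-positive cells, and −6.90 and −5.87 points in 2 libraries of 120 h AEL. All 83 tested genes were lower in atilla-positive cells of the 10 infested libraries (26.4% of all genes were), with log2 fold changes between −0.82 and −0.09. The largest falls were in RpLP0-like (−0.82, SE 0.08, adjusted p = 9.78e-07), RpL24-like (−0.75, adjusted p = 3.19e-05) and RpS15Ab (−0.53, adjusted p = 0.000529), while RpL41 fell by 0.41.

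**Figure D4:**
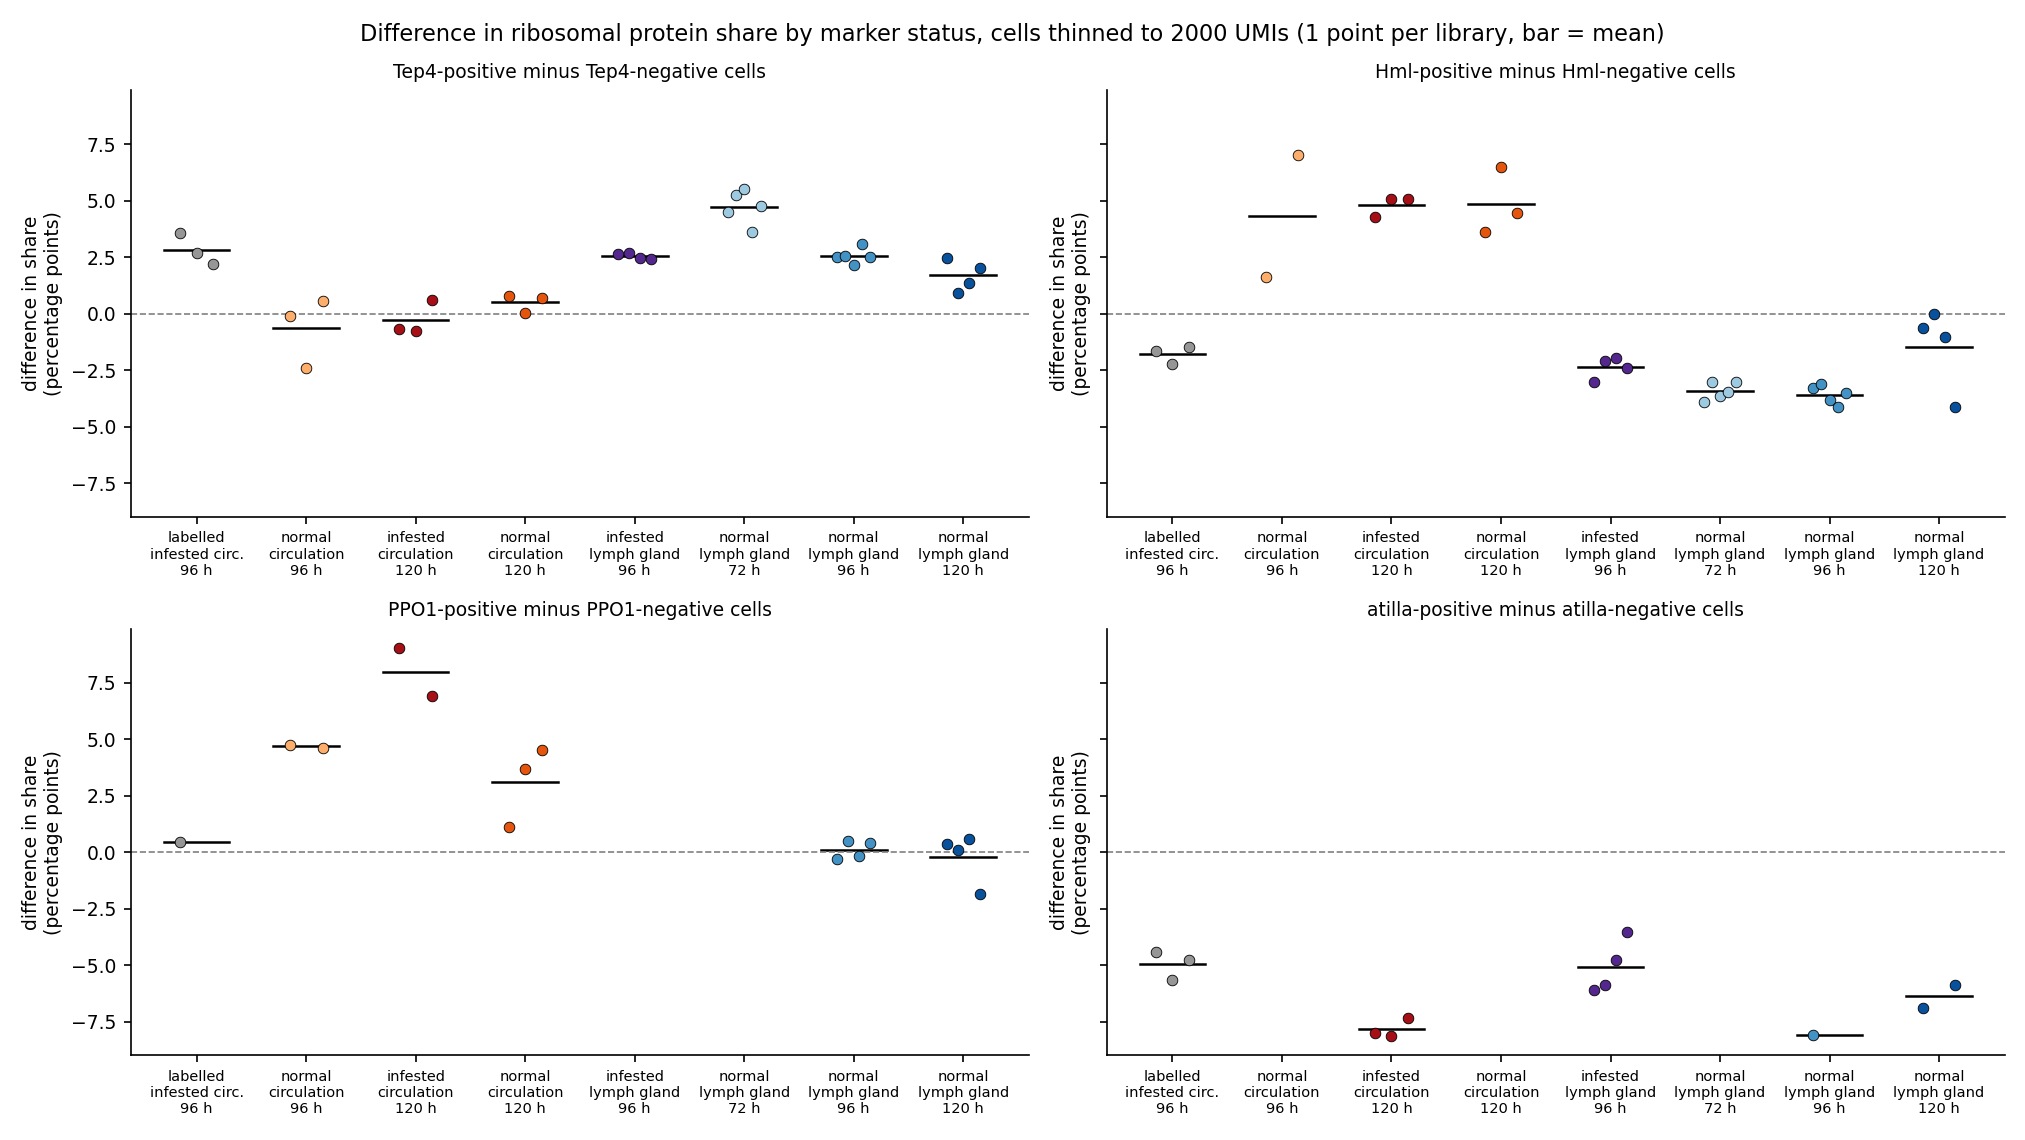
Difference in the share of ribosomal protein UMIs between cells positive and negative for Tep4, Hml, PPO1 or atilla (y axis, percentage points, cells thinned to 2000 UMIs) in the 8 groups (x axis), with 1 point per library and a bar at the mean. Groups without a point had no library with at least 10 cells in both classes, and the Hml difference is below 0 in all lymph gland libraries and above 0 in normal circulation and in infested circulation of 120 h AEL.

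Other lists of the translation machinery did not always move with the ribosomal protein genes. The 72 mitochondrial ribosomal protein genes, which serve the ribosome of the mitochondrion, were mostly lower at 120 than at 96 h AEL in normal lymph glands. There 58 of 72 were called (20.4% of all genes fell), with a median 0.42 under that of all genes. In circulation over lymph gland, 60 of them were lower at 96 h AEL (22.8% of all genes were lower). At 120 h AEL 14 were lower and 9 higher, both below the shares of all genes (24.0% and 28.0%). Labelled infested circulation had 54 higher than normal circulation (18.8% of all genes were higher). Infested circulation of 120 h AEL had 16 higher and 4 lower (1796 and 1748 of all 7645 genes). Those higher lay near the share of all genes and those lower below it. Infested lymph glands had 2 higher (584 of all 7315 genes).

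Translation factors moved with the ribosomal protein genes between the tissues. Of 29 tested, 22 were lower and 2 higher in normal circulation at 96 h AEL (22.8% and 27.0% of all genes). At 120 h AEL 21 were lower and 3 higher (24.0% and 28.0% of all genes). The largest falls were in the elongation factor subunit gene Ef1beta at 96 h AEL (log2 fold change −1.33) and in Rack1, a scaffold on the small subunit, at 120 h AEL (−1.47), while eIF5 rose at both ages (0.54 and 0.97). In labelled infested circulation 19 were higher and 3 lower (1436 and 1328 of all 7645 genes). Ef1alpha48D, the main elongation factor, was up by 1.12 (adjusted p = 0.00198) and pAbp, the poly(A)-binding protein, down with a log2 fold change of −1.06. In infested circulation of 120 h AEL 7 rose and 4 fell, pAbp at −1.20 among them (1796 and 1748 of all 7645 genes). The rises lay near the share of all genes and the falls below it. Among normal lymph glands, 1 rose and 5 fell between 72 and 96 h AEL (754 and 786 of all 7740 genes). Between 96 and 120 h AEL 5 rose and 3 fell, both below the shares of all genes (22.1% and 20.4%).

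Ribosome biogenesis genes, of RNA polymerase I and nucleolar assembly, differed from the ribosomal protein genes in several comparisons. Between 96 and 120 h AEL in normal lymph glands, 23 of 26 fell and 1 rose (20.4% and 22.1% of all genes). The median lay 0.84 under that of all genes, and RpI12, a subunit of RNA polymerase I, had a log2 fold change of −1.33 (adjusted p = 2.67e-05). In circulation over lymph gland at 120 h AEL, 15 rose and 1 fell (28.0% and 24.0% of all genes). The median lay 0.49 above that of all genes, with RpI135 at 1.53. In infested circulation of 120 h AEL 12 of 26 fell (22.9% of all genes fell). The gene dm, which encodes the Myc protein, a regulator of ribosome production, had a mean of 73.3 CPM in infested circulation, against 541 CPM in normal circulation (log2 fold change −2.74, adjusted p = 7.29e-05). In atilla-positive cells all 23 tested biogenesis genes were lower (26.4% of all genes were). Their median lay 1.08 under that of all genes, with dm at −1.87 (adjusted p = 9.46e-09). In Tep4-positive cells 18 of 26 were higher (13.2% of all genes were).

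**Figure D5:**
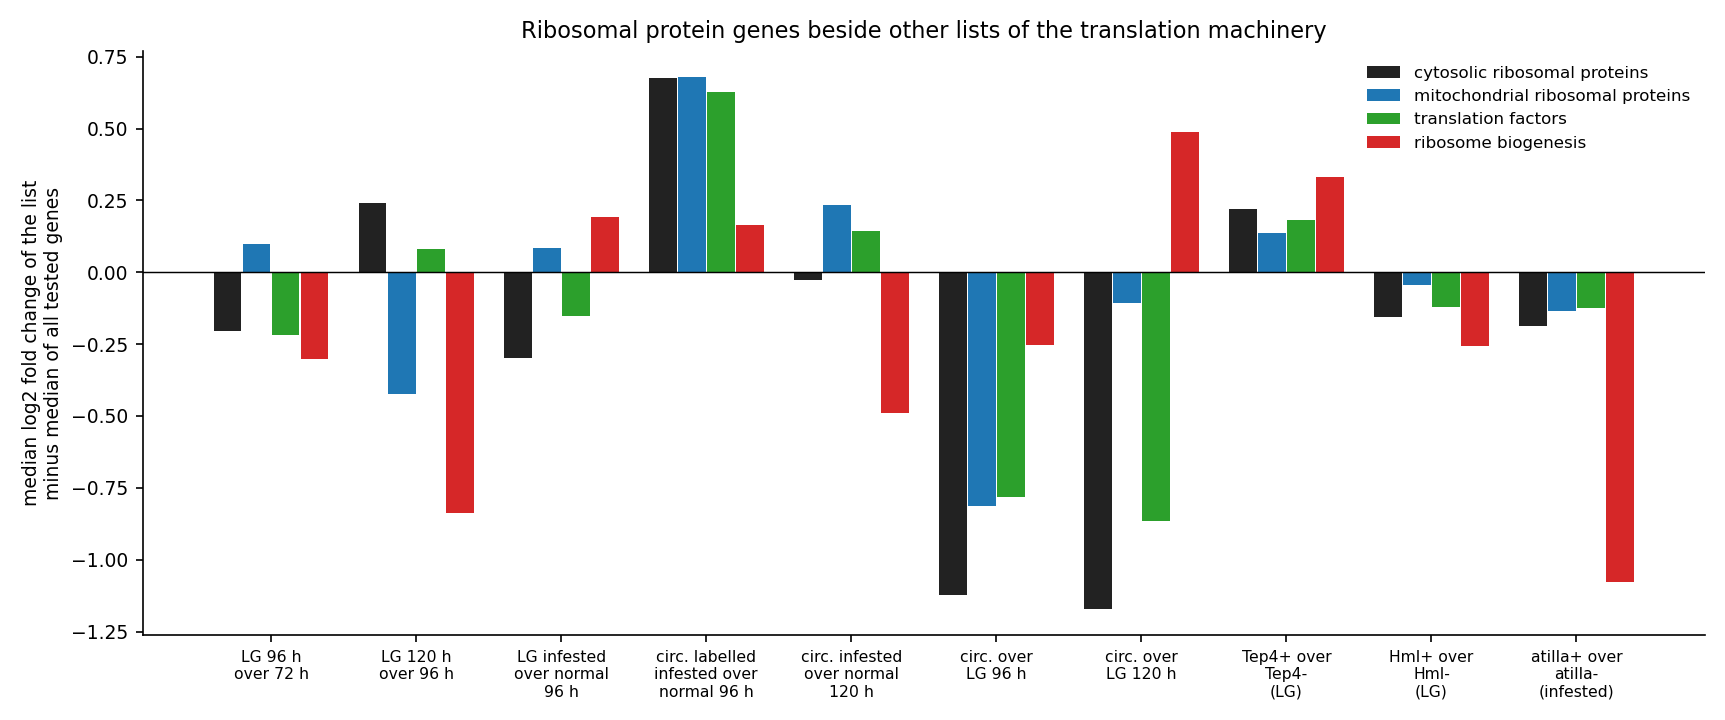
Median log2 fold change of each list minus that of all tested genes (y axis) for cytosolic ribosomal protein, mitochondrial ribosomal protein, translation factor and ribosome biogenesis genes in 7 comparisons of groups and 3 of marker status (x axis). From 96 to 120 h AEL in lymph glands the cytosolic ribosomal protein genes lie at 0.24 and the biogenesis genes at −0.84.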

How the data were processed

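The authors aligned the Drop-seq reads with STAR 2.5.3a, as the processing notes of the submitters name it with Picard and the genome BDGP6, and deposited UMI counts per gene and cell barcode, without normalization. Cells were barcodes with 400 to 5000 genes whose UMIs did not exceed the library mean by over 2 SD and whose mitochondrial share was at most 10% in lymph glands and 20% in circulation. The 10179 barcodes of infested lymph glands were deposited after filtering and were used as they stood, and their files list 541 fewer genes. No doublet caller was run, and a ceiling of 1 SD was tried instead.

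The cells of each library were added up, genes with low counts were removed by filterByExpr, and groups were compared by edgeR 4.0.16 quasi-likelihood tests (TMM, Benjamini-Hochberg over all genes tested, 0.05) in R 4.3.3 with limma 3.58.1. DESeq2 1.42.0 was an alternative. Shares were computed in Python 3.11.15 with pandas 2.3.3, numpy 2.4.6 and scipy 1.17.1. Library numbers were not used as pairs in the main fits. Deviations of same-numbered libraries correlated above 0.1 in 1 of 5, 1 of 4, 2 of 4 and 0 of 3 pairs of the comparisons. For infested and normal lymph glands, with 2 of 4 (highest r = 0.401), 2 libraries also matched best with their own number. Pairing was not settled there. Replicates differed by more than sampling noise in all 44 pairs. Tested on simulated data, the fits recovered 31% (labelled infested circulation) to 82% (lymph gland, 120 over 96 h AEL) of 2-fold changes and 81% to 98% of 4-fold changes.

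Genes named are the called members of 20 CPM or more in either group with the 3 largest increases and the 3 largest decreases, the paralog pairs, the most abundant members, genes over 1.0 from the median and the most changed translation and biogenesis genes. RpS5b and RpS19b, under 20 CPM in most groups, were named as paralogs. Some genes that the rule names are not reported here. Counts of 5 or fewer and single genes outside this rule were named after their values were seen. Members and lists were chosen with earlier results of these data known. Positions come from the BDGP6 annotation, in which 90 of the 91 symbols were found. Alternatives were library totals, no low-count filter, all barcodes, other denominators, a fit of all 30 libraries, the library number as a block, other UMI minimums for the marker classes, thinning to 1000 UMIs and leaving out each library.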

Additional observations from a re-analysis of the deposited data

Results flagged for a closer look

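Among normal lymph glands of 72 h AEL, library 5 stood below the other 4 in the summed share of ribosomal protein UMIs, at 33.6%, and in the level of RpLP1, at 5428 CPM. Library 4 of the same group stood above the others in the ratio of RpL to RpS UMIs, at 1.52. For each quantity, chance singles out about 1 in 20 groups in this way, and more than 1 quantity was looked at. RpLP1 is part of the summed share, so these flags of library 5 are not independent.

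The effect of infestation at 96 h AEL differed between lymph glands and labelled infested circulation for 77 of 86 ribosomal protein genes, and that in circulation differed between 120 and 96 h AEL for 10 of 85, by the interaction test of edgeR. Both use the libraries that went against their label.

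The difference in share between Hml-positive and Hml-negative cells averaged 4.32 percentage points in normal circulation of 96 h AEL, 4.84 points in normal circulation of 120 h AEL and 4.81 points in infested circulation of 120 h AEL, and was negative in every lymph gland library. This difference between the tissues was not tested.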

How the results depend on the processing

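Of the recomputed shares and counts, each 1 result under 1 alternative, 345 stayed within the replicate spread or 1.5 times the reported count, 58 moved further and 1 changed sign. That one was the PPO1 difference in share, which was 0.203 points without library 4 of normal lymph glands at 120 h AEL. Of the recomputed calls of single genes, 1329 held and 163 were lost. Without the 20 most abundant other genes in the denominator the difference in share was 0.0636 points for 120 over 96 h AEL in lymph glands, −15.7 points for circulation over lymph gland at 96 h AEL and −1.73 points for PPO1. With library totals as the only scaling, 7 genes were lower at 96 than at 72 h AEL, 3 were lower at 120 than at 96 h AEL, 15 were lower and 1 higher in infested lymph glands, 24 were lower in infested circulation of 120 h AEL, and 4 were higher in circulation than in lymph glands at 120 h AEL. Without the low-count filter the lower genes numbered 4 at 96 over 72 h AEL, 0 at 120 over 96 h AEL, 7 in infested lymph glands, 1 in labelled infested circulation and 2 in infested circulation of 120 h AEL. In 1 fit of all 30 libraries, 9 genes were higher at 120 than at 96 h AEL, 2 were lower in infested lymph glands, 2 were lower in labelled infested circulation, 2 were higher in infested circulation of 120 h AEL and 4 were higher in circulation than in lymph glands at 120 h AEL. A fit without labelled infested circulation, chosen after seeing the data, gave 4 higher genes in infested circulation of 120 h AEL. The cause was not tested for any of these. The library numbers were not used as pairs in the main fits, and for infested lymph glands pairing was not settled. With the library number as a replicate block 8 genes were lower at 96 than at 72 h AEL and 6 higher at 120 than at 96 h AEL. The block also gave 7 lower genes in infested lymph glands, 43 higher in labelled infested circulation and 7 lower in infested circulation of 120 h AEL. Leaving out 1 library at a time gave 5 to 40 lower genes at 96 over 72 h AEL (40 without library 5 of 72 h AEL), 5 to 25 higher genes at 120 over 96 h AEL, 9 to 53 lower genes in infested lymph glands (9 without infested library 2), 31 to 75 higher genes in labelled infested circulation, 5 to 8 lower genes in infested circulation of 120 h AEL, and 1 to 2 and 2 to 4 higher genes in circulation over lymph gland at 96 and 120 h AEL. For PPO1 it gave −0.143 to 0.203 points and 0 to 3 lower genes. Normal circulation held 1034 and 1706 cells in all at 96 and 120 h AEL. Simulated 2-fold changes were recovered in 31% of genes for labelled infested circulation, 50% for circulation over lymph gland at 120 h AEL and 82% for 120 over 96 h AEL in lymph glands, and the parts of depth and replicate spread in this were not tested.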
